A study of Mus musculus with 13 samples.

Results

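Immp1l and Immp2l encode the paired catalytic subunits of the mitochondrial inner membrane peptidase, and their mRNAs were followed here in 2-cell mouse embryos whose fathers had received acrylamide or its vehicle. The genes were taken by their symbols in the embryo expression files, which gave 2 of 16739 genes listed in any embryo library. They were selected on measured values, with earlier results of these data known: the FPKM of Immp1l separated the libraries of both exposed groups. Its levels in those groups are therefore given as a description without a test. Of the 2 genes, Immp1l passed the filter used for the test across genes, a mean of 1 FPKM (a read level scaled to transcript length and library size) or more over the 9 embryo libraries, which left 9766 genes. Immp2l, with a mean of 0.101 FPKM, did not.

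The fathers were Swiss mice injected intraperitoneally with acrylamide, which arises when starch-rich foods are fried or baked, at 25 mg/kg body weight per day on 5 days, or with PBS (control). Sperm taken 3 days after the last injection had been exposed in the epididymis (AAE), and sperm taken 24 days after it had been exposed as spermatocytes (AAS). The labels give no collection day for control sperm. Groups of 2-cell embryos from in vitro fertilisation were pooled for each library, with 3 control, 3 AAE and 3 AAS libraries and with the number of embryos not given in the sources used here. The labels do not say that replicates came from separate males, so p-values measure only the spread between these libraries.

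Most mitochondrial proteins are made in the cytosol with an N-terminal signal that the matrix processing peptidase removes after import. Some proteins of the intermembrane space carry a further, hydrophobic sorting signal, which the inner membrane peptidase cuts on the outer face of the inner membrane and so releases the mature protein. In yeast the subunits Imp1 and Imp2 cut different substrates and Imp2 stabilises Imp1. In mice, mutation of Immp2l was described to impair the processing of cytochrome c1 and of the glycerol phosphate dehydrogenase Gpd2, and to reduce fertility.

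Both genes were located in the RefSeq annotation of GRCm38, the assembly that mm10 denotes. Immp1l lies on the plus strand of chromosome 2 (chr2:105904638-105965558, 60921 bases) with 1 annotated transcript. It starts 73 bases from the start of Elp4, a gene of the opposite strand that encodes a subunit of the Elongator complex. Immp2l spans 931528 bases of the plus strand of chromosome 12 (chr12:41024061-41955588) with 4 annotated transcripts. The stretch between the starts of Elp4 and Immp1l is shown because both genes begin at its ends and were read out separately. It is set beside the stretch of the same length before Immp2l, on the plus strand, 5′ to 3′, from RefSeq, build GRCm38.p6, at chr2:105904565-105904637 and chr12:41023988-41024060. Capitals mark CCAAT on either strand (CCAAT or ATTGG).

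Immp1l: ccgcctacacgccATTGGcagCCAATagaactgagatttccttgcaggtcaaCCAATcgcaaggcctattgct

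Immp2l: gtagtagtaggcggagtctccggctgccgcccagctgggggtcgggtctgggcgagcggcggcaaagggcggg

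The stretch before Immp1l held 2 CCAAT and 1 ATTGG that do not overlap, and its G and C content was 52.1%. Of 32851 promoter windows of 73 bases in the RefSeq table, 13.8% held at least 1 of these words and 43 windows (0.131%) held 3 or more. The stretch before Immp2l held none and had 74.0% G and C, where the median window had 54.8%. The motif was chosen after the sequence had been seen, and a match is a description of letters, not of a bound site.

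Immp1l was an abundant mRNA in these embryos. Its level ranked 423 of 9766 genes by mean FPKM (4.33% of genes at or above it), with a mean of 136.7 FPKM over all libraries where the median gene had 8.47. The control libraries stood at 146.33, 175.19 and 111.58 FPKM in replicates 1, 2 and 3. The AAE libraries stood at 180.98, 190.51 and 224.13 FPKM, each above every control library. The AAS libraries stood at 68.72, 64.93 and 67.58 FPKM, each below every control library. The 3 groups thus had the order AAS, control, AAE with no overlap between neighbours. Among the 9766 genes, 3.73% had all AAE above all control libraries and 8.6% had all AAS below all control. The full order was found in 0.266%. Immp1l was chosen for its separation, so nothing is read from these shares. The step between control and AAE was narrow, 5.79 FPKM between the nearest libraries, and that between AAS and control was 42.9 FPKM.

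**Figure D1:**
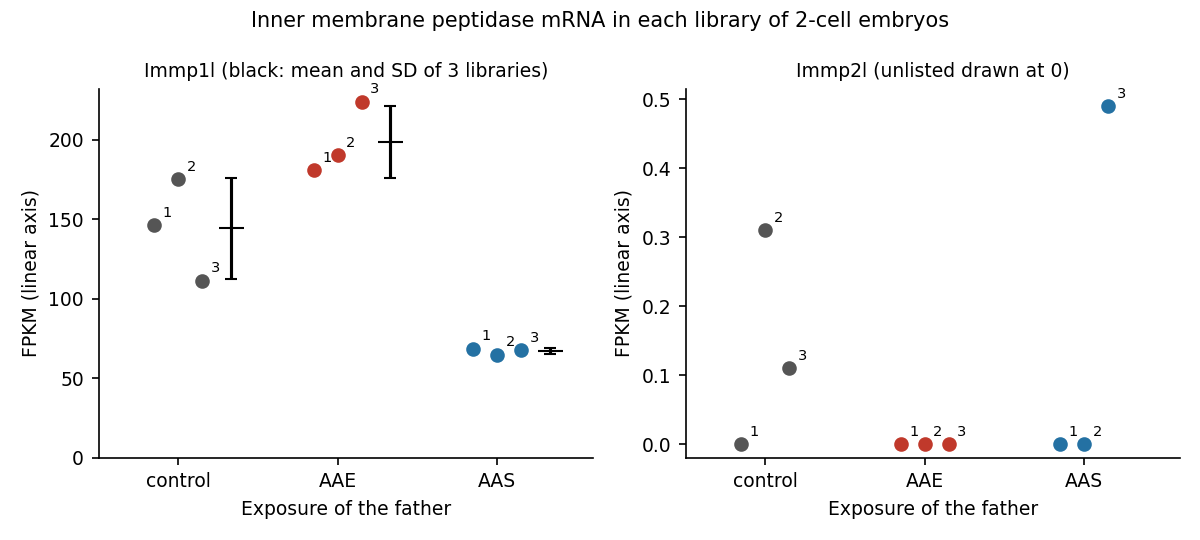
FPKM of Immp1l (left) and Immp2l (right) in each library of 2-cell embryos, by exposure of the father, on linear axes of different scale. Points are single libraries numbered by replicate, and black bars are the mean and SD of 3 libraries. The AAS libraries of Immp1l lie between 64.93 and 68.72 and the AAE libraries between 180.98 and 224.13, while Immp2l is listed in 3 libraries at 0.49 or less.

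The group means of Immp1l were 144.4 ± 31.9 FPKM in control libraries, 198.5 ± 22.7 in AAE and 67.1 ± 1.94 in AAS (SD, n = 3 each). AAE embryos thus held 1.38 times the control mean, AAS embryos 0.465 times, and AAE embryos 2.96 times the AAS mean. The lowest AAE library held 2.63 times the level of the highest AAS library. On the log2(FPKM + 1) scale the differences were 0.47 for AAE against control, -1.07 for AAS against control and 1.55 for AAE against AAS, each with an SE of 0.198 from the fit of all 9 libraries. Without control replicate 3 the AAE difference from control was 0.30, and without control replicate 2 it was 0.63. Both differences from control rest on the same 3 control libraries. The authors' deposited table gives log2 fold changes of 0.53 for AAE over control, -1.0 for AAS over control and -1.52 for AAS over AAE. Each library is a group of embryos, so fewer cells with the transcript and less transcript per cell cannot be told apart.

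The spread of Immp1l within groups was unlike between them. The coefficient of variation was 22.1% in control, 11.4% in AAE and 2.90% in AAS libraries. The pooled SD within groups was 0.211 on the log2 scale, where 454 genes within 0.5 log2 units of its level had a median of 0.268 and 31.9% of them a smaller value. Immp1l thus varied between replicates about as much as other genes of its abundance.

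The libraries were also compared in features other than Immp1l. The FPKM total over all genes was 342502 to 351634 in AAS, 359534 to 407033 in AAE and 343796 to 403498 in control, so AAS and AAE totals did not overlap, while control replicate 3 lay within the AAS range. As a share of these totals Immp1l stood at 187 to 201 ppm in AAS, 325 to 434 in control and 468 to 600 in AAE, and the groups kept their order. Libraries listed 13675 to 14392 genes in control, 11625 to 13914 in AAE and 12173 to 12673 in AAS. Every AAS library thus listed fewer genes than every control library, and AAE replicate 3 listed the fewest. Median correlations with the other libraries were 0.921 to 0.927 in control, 0.872 to 0.920 in AAE and 0.870 to 0.907 in AAS. By this measure every AAS and every AAE library lay below every control library, though AAE replicate 2 (0.920) was close to control replicate 1 (0.921). All 9 of the 2-cell marker genes (Zscan4c, Zfp352 and others) were measured, with a summed level of 1560 to 1946 FPKM in AAS, 1635 to 2316 in AAE and 1927 to 2252 in control. The 7 oocyte genes, carried over as maternal RNA, summed to 993 to 1386 FPKM over all libraries. Of 7 cumulus and granulosa markers 5 were listed, at a sum of 0.45 to 6.75 FPKM, with Foxl2 and Ptx3 in no library. Of 6 sperm markers 2 were listed (0 to 4.92 FPKM, and at 0 in all AAS libraries), with Prm1, Tnp1, Tnp2 and Akap4 in no library. The listed sperm gene Prm2 was in all 3 AAE libraries. Of 5 blood markers 2 were listed, at a sum of 1.51 to 8.58 FPKM in AAE, 0.60 to 6.75 in control and 0 to 2.15 in AAS. Alas2 was listed in AAS replicate 2 alone, at 0.19 FPKM, and Hbb-bs, Hbb-bt and Hba-a2 in no library. The blood gene Hba-a1 was listed in all 3 AAE and all 3 control libraries and in 1 AAS library, with log2 differences of 1.61 for AAE against AAS and -1.12 for AAS against control (limma adjusted p = 0.635 and 0.8). The part of these features in the level of Immp1l was not tested.

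The other catalytic subunit was barely detected. Immp2l was listed at 0.31 FPKM in control replicate 2, 0.11 in control replicate 3 and 0.49 in AAS replicate 3, and was not listed in the remaining 6 libraries. Unlisted genes were set to 0, although a missing entry may be an estimate that failed, and the files give no depth. In each library where it was listed Immp2l had 1 transcript entry, as Immp1l had in all 9. Which of the 4 annotated transcripts of Immp2l this entry stands for was not examined. A two-sided exact permutation test of log2(FPKM + 1) gave p = 0.4 for AAE against control, and p = 1 for AAS against control and for AAE against AAS. Adjusted over these 3 comparisons, each exact p was 1, and 3 against 3 libraries cannot give less than 0.1. At this level a difference between the groups was not detectable. In the 3 libraries where both were listed Immp1l was at 175.19, 111.58 and 67.58 FPKM.

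The genes beside Immp1l did not share its level. Elp4, which starts 73 bases away on the other strand, was at 3.11, 3.84 and 2.88 FPKM in the control libraries, 0.41, 3.6 and 2.59 in the AAE libraries, and 2.58, 2.73 and 1.94 in AAS. Its AAE and control values overlapped, while all AAS values lay below all control values, as in 8.6% of all genes that passed the filter. Averaged over all libraries Immp1l was 51.9 times as high as Elp4 in FPKM. The log2 differences of Elp4 were -0.58 (SE 0.476) for AAE against control, -0.33 for AAS against control and -0.25 for AAE against AAS, with adjusted p of 1, 0.921 and 0.925 in limma with Benjamini-Hochberg adjustment. Dnajc24, which acts in the making of diphthamide and begins the other flank 1149 bases past the end of Immp1l, was listed in 4 libraries at 0.26 FPKM or less. Pax6, a transcription factor of eye development, was listed in 7 libraries with a mean of 0.704 FPKM and its highest value, 3.72, in AAS replicate 2. Mpped2, a phosphodiesterase gene, was listed in 2 libraries at 0.07 FPKM or less, and Rcn1 and Dcdc5 in none.

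The genes nearest to Immp2l, Dock4 and Lrrn3, were low too, while genes of far higher level lay 578270 bases or more away. Zfp277, a zinc finger gene, had a mean of 45.2 FPKM, Ifrd1, a transcriptional co-regulator, 42.0, Dnajb9, a co-chaperone of the endoplasmic reticulum, 96.5, and Pnpla8, a phospholipase of mitochondria and peroxisomes, 65.6. Dock4, the nearest gene before it and an activator of small GTPases, had 0.801 FPKM, and the adhesion gene Nrcam had 1.33. Lrrn3, which lies inside Immp2l, was listed in 5 libraries, in no AAE library and with a highest value of 1.52 FPKM in control replicate 1. Of the 5 neighbours that passed the filter, 0 passed the test in any of the 3 comparisons, and their log2 differences for AAE against AAS ran from -0.41 for Pnpla8 to 0.33 for Nrcam.

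**Figure D2:**
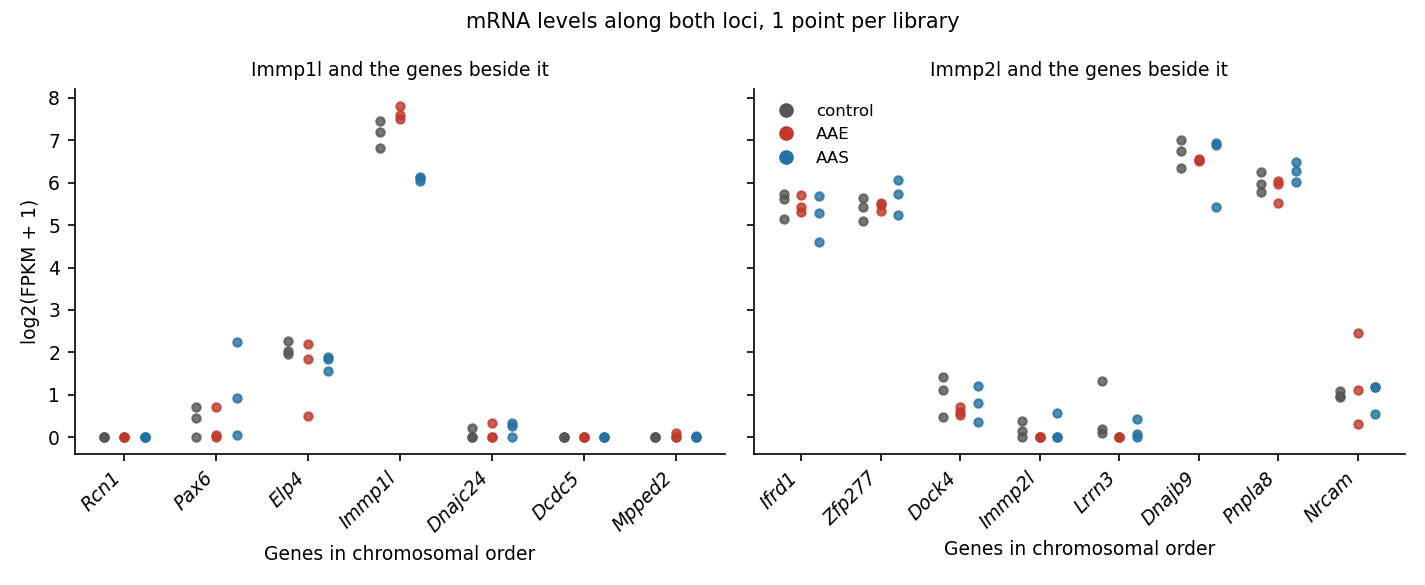
Levels as log2(FPKM + 1) of Immp1l (left) and Immp2l (right) and of the nearest annotated protein-coding genes in chromosomal order, with 1 point per library, colour giving the exposure of the father and unlisted genes drawn at 0. Immp1l is the only gene of its 7 with points above 3. Immp2l lies near 0, with Dock4, at a mean of 0.801 FPKM, and Lrrn3, at 0.239, next to it in this order. Beyond these lie Zfp277, at 45.2 FPKM, and Dnajb9, at 96.5.

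The mRNAs of 4 mitochondrial proteins that the peptidase is reported to process were compared over all 3 groups, and no group difference passed the test for any of them. The percentage of all 9766 genes called at an adjusted p under 0.05 (limma, Benjamini-Hochberg) was 0 in each comparison. This count holds for limma on log2(FPKM + 1) alone. The authors' deposited table gives Immp1l an adjusted p under 0.05 for AAS over control and for AAS over AAE. The sources used here do not name its test. Immp1l was chosen on these levels, so nothing is read from its deposited p-values. At an unadjusted p under 0.05 there were 206 of 9766 genes for AAE against control (87 higher, 119 lower). There were 602 for AAS against control (149 higher, 453 lower) and 755 for AAE against AAS (540 higher, 215 lower). Where no gene differs, this threshold alone passes a fraction of about 0.05. The lists named here were chosen with earlier results of these data known.

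Aifm1, a flavoprotein of the intermembrane space that can be released in cell death, was at 15.46, 9.19 and 11.59 FPKM in the control libraries, 13.60, 12.90 and 16.94 in the AAE libraries, and 12.25, 5.49 and 6.77 in AAS. Its AAE values lay above all AAS values, and control overlapped both. The log2 difference of AAE against AAS was 0.82 (SE 0.348, limma adjusted p = 0.612). Among all genes tested, 6.98% had every AAE library above every AAS library. Gpd2, the glycerol phosphate dehydrogenase of the inner membrane, stood at 4.42, 3.57 and 6.28 FPKM in the control libraries, 6.61, 6.21 and 3.42 in the AAE libraries, and 7.90, 2.79 and 4.66 in AAS, so its groups overlapped throughout. Diablo, an antagonist of inhibitors of apoptosis, stood at 6.15, 5.79 and 3.01 FPKM in the control libraries, 4.66, 6.01 and 0.45 in the AAE libraries, and 8.13, 2.42 and 5.81 in AAS. Its groups overlapped too, with the lowest value in AAE replicate 3. Cyc1, which encodes cytochrome c1 of the respiratory chain, stood at 0.05, 0.83 and 2.33 FPKM in the control libraries, 1.42, 3.07 and 1.12 in the AAE libraries, and 2.42, 1.94 and 3.79 in AAS. Only the lowest AAS value of Cyc1 fell within the control range, and its log2 difference of AAS against control was 0.97 (SE 0.507, limma adjusted p = 0.792). The 4 substrates thus had median log2 differences of 0.20 for AAE against control, 0.03 for AAS against control and -0.14 for AAE against AAS, where all genes had -0.05, -0.11 and 0.05.

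The other peptidases of mitochondria were measured at levels on both sides of Immp1l. Of 15 genes of the list 12 passed the filter, and Clpp, Afg3l1 and Spg7 did not. Parl, the rhomboid protease of the inner membrane, had a mean of 172.0 FPKM over all libraries and Mipep, which trims imported precursors in the matrix, 112.5, so both were close to Immp1l at 136.7. The matrix processing peptidase, which makes the first cut, had a mean of 2.07 FPKM for its subunit Pmpca and 4.37 for Pmpcb. Of the 12 genes, 0 passed the test in any comparison, against 0 percent of all genes. For AAS against control 11 of 12 differences were negative, with a median of -0.23 where all genes had -0.11. The share of all genes with a negative difference was not taken, so this count is not read as a trait of the list. Pitrm1, which degrades cleaved presequences, had the smallest p of the 12 for AAS against control. It stood at 10.70, 12.51 and 12.08 FPKM in control libraries and 10.76, 5.50 and 7.97 in AAS, with a log2 difference of -0.53 (SE 0.335, limma adjusted p = 0.796). For AAE against AAS 8 of 12 differences were positive, which is not read as a trait either. The median there was 0.26 where all genes had 0.05. Xpnpep3, an aminopeptidase that trims processed proteins, had the smallest p both there and against control. It stood at 3.69, 2.21 and 4.39 FPKM in the control libraries, 4.61, 6.72 and 9.08 in the AAE libraries, and 4.82, 1.43 and 3.63 in AAS. All its AAE values lay above all control values, as in 3.73% of all genes, and AAE overlapped AAS. Its log2 difference for AAE against control was 0.81 (SE 0.445, limma adjusted p = 1).

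The translocase and motor that bring precursors to the inner membrane showed no called change either. Of 13 genes of the TIM23 complex and import motor 12 passed the filter and 0 passed the test in any comparison. For AAS against control 10 of 12 differences were negative, with a median of -0.33 where all genes had -0.11. Here too the share of all genes with a negative difference was not taken, so the count is not read as a trait of the list. Timm23, the channel subunit, was close to Immp1l in level, with a mean of 123.4 FPKM, and its lowest value, 25.75 FPKM, was in AAS replicate 2. Grpel1, the nucleotide exchange factor of the motor, stood at 3.71, 3.8 and 4.24 FPKM in the control libraries, 5.54, 9.91 and 7.14 in the AAE libraries, and 4.88, 4.50 and 3.9 in AAS. Its AAE values lay above all control values, as in 3.73% of all genes, and above all AAS values, as in 6.98%. Its AAS values overlapped control. The log2 difference for AAE against control was 0.76 (SE 0.345, limma adjusted p = 1). Dnajc19, a co-chaperone of the motor, stood at 3.20, 3.89 and 6.40 FPKM in control libraries and 1.19, 4.44 and 3.57 in AAE, and at 0.89 and 0.29 in AAS replicates 2 and 3 while it was unlisted in AAS replicate 1. All its AAS values lay below all control values, as in 8.6% of all genes, and below all AAE values, as in 6.98%. The log2 difference was -1.99 for AAS against control (SE 0.481, limma adjusted p = 0.659).

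The signal peptidase of the endoplasmic reticulum, whose catalytic subunits Sec11a and Sec11c belong to the same protease family as Immp1l and Immp2l, had median log2 differences of -0.16 for AAE against control, -0.75 for AAS against control and 0.64 for AAE against AAS. All genes had -0.05, -0.11 and 0.05. Of its 5 genes 4 passed the filter, Spcs3 did not, and 0 passed the test in any comparison. Sec11a stood at 25.24, 22.73 and 20.69 FPKM in the control libraries, 26.91, 18.84 and 12.75 in the AAE libraries, and 5.80, 16.99 and 6.90 in AAS. Its AAS values lay below all control values, as in 8.6% of all genes, with a log2 difference of -1.27 (SE 0.396, limma adjusted p = 0.664). Sec11c stood at 6.75, 14.09 and 11.23 FPKM in the control libraries, 2.36, 1.61 and 5.16 in the AAE libraries, and 12.89, 12.62 and 7.51 in AAS. Its AAE values lay below all other values, the opposite side from Immp1l. All AAE libraries lay below all control libraries in 4.78% of all genes and below all AAS libraries in 4.28%. The log2 difference of Sec11c was -1.58 for AAE against control (SE 0.427, limma adjusted p = 1) and -1.63 against AAS (limma adjusted p = 0.408). Spcs1, an accessory subunit, stood at 13.54, 16.04 and 11.33 FPKM in the control libraries, 10.11, 21.12 and 12.20 in the AAE libraries, and 4.97, 6.02 and 5.47 in AAS. Its AAS values lay below all control values, as in 8.6% of all genes, and below all AAE values, as in 6.98%. Its log2 difference of AAS from control was -1.17 (SE 0.333, limma adjusted p = 0.659). In none of the measured genes of the 4 lists did all AAS values lie above all control values, a pattern held by 4.52% of all genes. All AAS values lay below all control values in Dnajc19, Sec11a and Spcs1, a pattern held by 8.6% of all genes. With so few genes in the lists, nothing is read from either pattern.

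**Figure D3:**
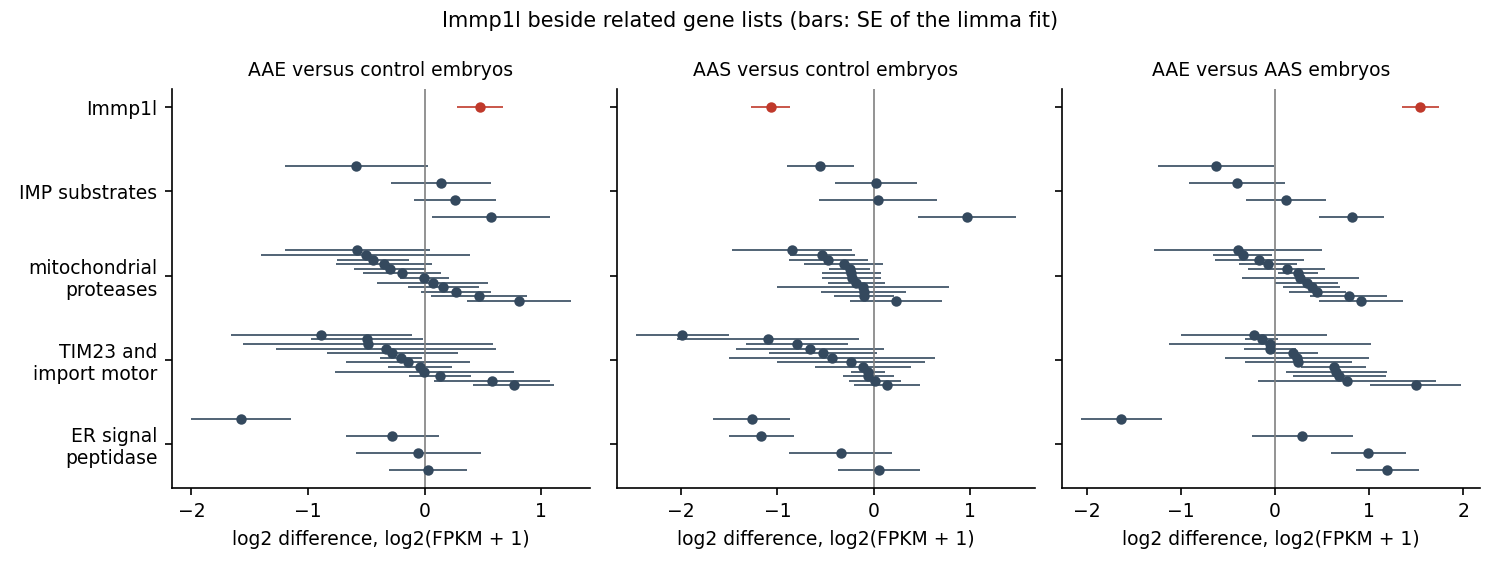
Log2 differences on the log2(FPKM + 1) scale with the SE of the limma fit for Immp1l (red) and for each measured gene of the lists (dark), in the comparisons AAE against control, AAS against control and AAE against AAS, which share libraries. Immp1l lies at 0.47, -1.07 and 1.55, and in the ER signal peptidase row Sec11c lies at -1.63 for AAE against AAS.

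Few genes of the embryo transcriptome showed the order seen in Immp1l. All AAE libraries above all control libraries, and all control above all AAS, was found in 26 of 9766 genes (0.266%). The lowest AAE library held at least 2 times the highest AAS level in 14 of these (0.143%). Immp1l was in both counts, and it was chosen for this separation, so nothing is read from them. By mean level it ranked 2 among the 26, after Trim60, a gene named here after its values were seen, which stood at 462.58 to 615.70 FPKM in AAS, 619.95 to 711.89 in control and 753.31 to 899.80 in AAE.

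The 5 genes most like Immp1l, by Pearson's r of log2(FPKM + 1) over the 9 libraries, shared its low AAS level. These values come from libraries that chose Immp1l and are a description. Dstn, an actin-depolymerising factor, had r = 0.964 and stood at 101.56, 103.22 and 88.02 FPKM in the control libraries, 91.97, 111.11 and 107.60 in the AAE libraries, and 63.31, 60.74 and 62.06 in AAS. Its AAS values lay below all others, while AAE and control overlapped. Xrcc3, which acts in DNA repair, had r = 0.960 and stood at 13.63, 12.48 and 9.81 FPKM in the control libraries, 14.92, 21.62 and 32.36 in the AAE libraries, and 5.49, 2.75 and 3.30 in AAS. Like Immp1l it had AAE above control and control above AAS with no overlap. Gtf2e2, a subunit of the general transcription factor TFIIE, had r = 0.951 and ranged from 25.67 to 34.62 FPKM in control libraries, 37.25 to 50.14 in AAE and 15.34 to 22.34 in AAS, in the same order. Psmd4, a ubiquitin receptor of the proteasome, had r = 0.942 and ranged from 46.66 to 67.34 FPKM in control libraries, 60.19 to 70.86 in AAE and 30.81 to 37.70 in AAS, where AAE and control overlapped. Ccl3, a chemokine, had r = 0.946 and ranged from 1.62 to 7.58 FPKM in control libraries and 3.66 to 5.42 in AAE, and it was listed in AAS at 0.30 FPKM in replicate 1 alone. In limma the 5 genes had 0 calls in each comparison.

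**Figure D4:**
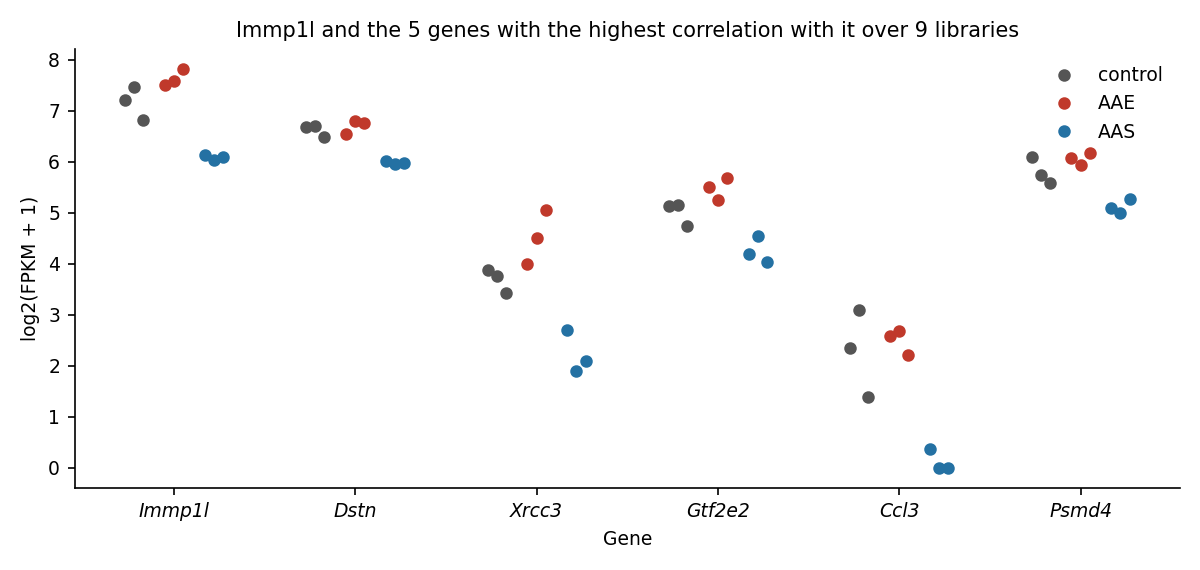
Levels as log2(FPKM + 1) of Immp1l and of the 5 genes with the highest Pearson r with it, with 1 point per library and colour giving the exposure of the father. In each gene the 3 AAS libraries lie lowest, and the AAE libraries lie above all control libraries in Immp1l, Xrcc3 and Gtf2e2.

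The size of the Immp1l differences was compared over 16 other settings. AAE against AAS ranged from 1.43 to 1.61 on the log2 scale. AAE against control ranged from 0.30 to 0.63 and AAS against control from -1.24 to -0.92. As the groups do not overlap, leaving out a library could not turn a sign, so nothing is read from the kept signs. No filter, the fit of 2 groups and the replicate block cannot move these differences and change only their SE. Among all genes the median difference of AAS against control was -0.11 as deposited and 0.02 after quantile normalization. Relative to the median of all genes the AAS difference of Immp1l was -0.97 as deposited and -1.01 after quantile normalization.

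**Figure D5:**
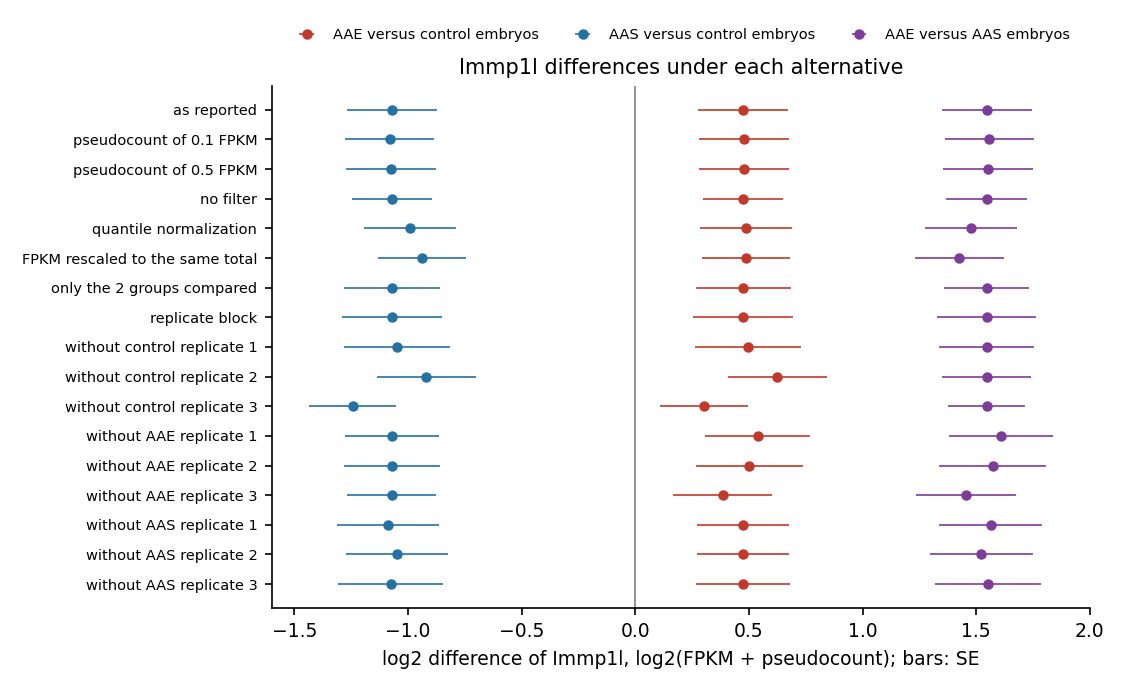
Log2 differences of Immp1l with the SE of the limma fit under each processing alternative, in the 3 comparisons. AAE against AAS stays between 1.43 and 1.61, and AAE against control comes nearest to 0, at 0.30, without control replicate 3.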

How the data were processed

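Per the labels' protocols, RNA of groups of 2-cell embryos was made into libraries with a Nugen Trio kit and sequenced. HISAT2 2.0.4, DESeq2 and the build mm10 are named, with no role, per the submitters' processing notes; the step that made the FPKM values is not given in the sources used here. For each embryo library the deposited file gives 1 FPKM per transcript, and no transcript is listed at 0. The deposited comparison table gives log2 fold changes with p-values. Its log2 fold changes of Immp1l are quoted, and the comparisons where its adjusted p of Immp1l was under 0.05 are named. Depth could not be recovered from the low values, so no counting error is given. Sperm small RNA files were not used here.

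FPKM were summed per gene ID and unlisted genes set to 0. Those averaging at least 1 FPKM were kept, and log2(FPKM + 1) of all 9 libraries was fitted with limma 3.58.1 in R 4.3.3 (empirical Bayes with trend), two-sided, with Benjamini-Hochberg adjustment over all 9766 genes at 0.05. This scale understates changes of low genes. The design had foreseen a limma value for Immp2l, which failed the filter, so it has a permutation test. Only with no filter did limma include Immp2l, and there it was called in no comparison. The fit was tested on simulated data. The members and lists were chosen with earlier results of these data known. Named genes were all substrates and neighbours (3 per side by RefSeq), the list members with the smallest p in each comparison and the 5 genes most like Immp1l; Sec11a and genes named for their level were added after their values were seen. No likeness is given for Immp2l, unlisted in 6 libraries. Of 16739 gene IDs, 16703 matched RefSeq. Python 3.11.15 and matplotlib 3.10.9 drew the figures.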

Additional observations from a re-analysis of the deposited data

Results flagged for a closer look

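Immp1l differed from control in opposite directions in the exposed groups: every AAE library lay above the control mean and every AAS library below it. The log2 differences from control were 0.47 in AAE and -1.07 in AAS, which differ by 1.55. Both differences from control rest on the same control libraries. The nearest AAE and control libraries were 5.79 FPKM apart, and the AAE difference was 0.30 without control replicate 3. As the gene was chosen because AAE and AAS separate, opposite signs follow whenever control lies between them, so nothing is read from them. The difference between AAE and AAS was not tested, since it chose the gene.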

How the results depend on the processing

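All 3 differences of Immp1l kept their sign and moved by less than the SD between replicates under other pseudocounts (0.1 and 0.5), no filter, quantile normalization, equal totals, a fit of 2 groups, the replicate block and each library left out. With libraries left out they ranged from 1.46 to 1.61 for AAE against AAS, 0.30 to 0.63 for AAE against control and -1.24 to -0.92 for AAS against control. As the groups do not overlap, a left-out library could not turn a sign. No filter, the fit of 2 groups and the replicate block cannot move these differences. Genes called stayed at 0 in all settings for both comparisons with control. For AAE against AAS the count ranged from 0 to 1 with libraries left out. The 1 gene, without control replicate 3, was Immp1l, which was selected on this same contrast, so nothing is read from it. With the replicate block, calls were 0 and the differences 1.55, 0.47 and -1.07. Same-numbered libraries correlated at -0.176 to 0.206 in their deviations from group means, and not every library correlated best with its own number. The labels give replicate numbers only, and these correlations cannot decide whether same-numbered libraries share more than that.

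At an unadjusted p under 0.05, AAE against control moved from 206 of 9766 genes to 592 of 16739 with no filter. Among the 9766 it was 317 with 2 groups fitted, 459 when AAE replicate 2 was left out, 111 when control replicate 2 was, and 141 when control replicate 1 was. AAS against control moved from 602 of 9766 genes to 1022 of 16739 with no filter. Among the 9766 it was 304 without control replicate 2 and 381 without control replicate 1. Immp2l for AAS against control, 0.01 on the log2 scale, turned to -0.18 with a pseudocount of 0.1 and ranged from -0.18 to 0.12 with libraries left out. For AAE against AAS it was -0.19, ranged from -0.29 to -0.19 with libraries left out, and was -0.85 with a pseudocount of 0.1, -0.33 with 0.5 and -0.42 with equal totals. For AAE against control it was -0.18, ranged from -0.27 to -0.08 with libraries left out, and was -1.04 with a pseudocount of 0.1, -0.33 with 0.5 and -0.41 with equal totals. Quantile normalization, the replicate block and the fit of 2 groups were not run for Immp2l, and without AAS replicate 3 AAE against AAS has no value, as neither group lists it. Embryo depth is unknown and limits what can be said of Immp2l.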
